A study of Mus musculus with 12 samples.

Results

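Germ cells of the testis carry their own forms of several enzymes of energy metabolism, and 5 such testis forms are described here together with the somatic forms of the same proteins. The pairs are Pgk2 and Pgk1 (phosphoglycerate kinase), Ldhc and Ldha (lactate dehydrogenase), Gapdhs and Gapdh (glyceraldehyde-3-phosphate dehydrogenase), Pdha2 and Pdha1 (the E1 alpha subunit of pyruvate dehydrogenase), and Cyct and Cycs (cytochrome c). They were chosen by gene name: every non-control probe on the array named after one of these 10 genes was taken, with Gapds and Gapd accepted as older names. That gave 15 probes in 33 spots, of 41174 non-control probes in 43379 spots, for 9 of the 10 genes, on an array with 27670 gene names. No probe carried the name Gapdh or Gapd. Of the 15 probes 14 passed the filter on dim probes, and all 9 genes with a probe were among the 15830 genes tested.

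The testis forms are made in spermatocytes and spermatids, the meiotic and post-meiotic germ cells of the seminiferous tubules. Pgk1 and Pdha1 lie on the X chromosome, which is silenced during male meiosis, and Pgk2 and Pdha2 are autosomal copies without introns that arose from their messenger RNAs. Gapdhs and Ldhc serve glycolysis in the sperm tail, and Cyct carries electrons in the mitochondria of germ cells. The somatic forms are used in most other cells, Leydig cells included.

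The RNA came from laser-captured Leydig cells, the testosterone-producing cells that lie between the tubules. All mice were male C57BL/6J, 21 weeks old when sampled. Those of the DEHP group had received di-(2-ethylhexyl) phthalate, a phthalate plasticiser, by daily gavage in corn oil for 21 days (200 mg per kg each day), and those of the vehicle group corn oil alone. Each sample was a single cap from a single mouse, and its RNA went through a double round of amplification before labelling. DEHP mice 1 and 4 were each hybridised against vehicle mice 1, 2 and 4 on two-colour Agilent arrays in both dye orientations, which gave 12 arrays of 5 animals. The animal is the replicate, so a group comparison sets 2 mice against 3.

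The share of spots well above background per array was 45.4% to 54.4% for red and 35.5% to 46.1% for green. Of the 10 Leydig cell markers looked up (Star, Insl3, Cyp17a1 and others), 7 were well above background on every array and all 10 were tested. The same held on every array for all 15 spermatid markers (Prm1, Prm2, Tnp1, Acrv1 and others), genes that define post-meiotic germ cells and not the cells named in the labels. Germ cell transcripts were thus measured in the captures of both groups. The probes used for the 5 testis forms were likewise well above background on 12 of 12 arrays in the channels of both groups, and none was saturated. In such samples fewer cells of a type and less RNA per cell cannot be told apart.

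The probes of a testis form and of its counterpart were compared in sequence. The longest run of bases shared by a testis-form probe and a probe of its named somatic partner was 7. The probes of a pair need not lie at matching places, so that run does not show how far the forms can be read apart. No probe was aligned to the transcript of the other form, and binding of a probe to the other form was not tested. The longest overlap was between the Gapdhs probe and a probe of a similar sequence. A probe named LOC380687 lists the RefSeq transcript of Gapdh among its accessions, and its mm7 position overlaps that of a probe named LOC14433, whose number is the gene ID of Gapdh. Aligned without gaps, it and the Gapdhs probe overlapped over 54 bases, of which 43 were identical (79.6%). Whether the LOC380687 probe reads Gapdh itself was not tested, so the differing bases need not all separate Gapdhs from Gapdh. The 11 differing bases are in capitals below, 5′ to 3′; the Gapdhs probe lies at chr7:27667701-27668135 and the LOC380687 probe at chr6:125188003-125188172, both on the minus strand of mm7. Both positions are longer than the 60 bases of a probe, so each probe is split on the genome.
Gapdhs: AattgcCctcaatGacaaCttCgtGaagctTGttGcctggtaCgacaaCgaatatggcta
LOC380687: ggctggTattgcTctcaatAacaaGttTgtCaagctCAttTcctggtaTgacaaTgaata

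The promoters of the members differ in composition between the forms. Over the 250 bases before the annotated start (RefSeq, GRCm38.p6), the outermost promoters of Pgk1, Ldha, Pdha1 and Cycs held 62.8%, 67.2%, 61.6% and 64% G and C with 17, 25, 15 and 23 CpG dinucleotides. Those of Pgk2, Ldhc, Pdha2 and Cyct held 42%, 54.4%, 31.6% and 45.6% with 3, 8, 4 and 6 CpG dinucleotides. Over 32851 promoters of that length the medians were 52.4% and 6. At these outermost starts the testis form of each of the 4 pairs had the lower GC share and fewer CpG dinucleotides. Ldha and Ldhc also have a second annotated start, with 54.4% and 59.2% G and C and with 9 and 3 CpG dinucleotides. The GC order of that pair was thus reversed there. Gapdhs and Gapdh were close in GC, at 54.8% and 55.6%, with 1 and 8 CpG dinucleotides.

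Short motifs were searched on both strands of the same 250 bases, and a match is given as letters only. TGACG, a core part of the cyclic AMP response element, occurs in 17.8% of all promoters, CCAAT in 33.8%, GGGCGG in 32.7%, TATAAA in 12.4% and CACGTG in 6.02%. The outermost Ldhc promoter held TGACG at 2 places, beside 1 GGGCGG, and the Ldha promoter held it on both strands at overlapping places, beside CACGTG and GGGCGG at 2 places each. At the second starts the Ldha window held 1 TGACG and the Ldhc window none of the motifs. The Pgk2 promoter held CCAAT at 2 places, and the Pgk1 promoter held 1 CCAAT and 1 GGGCGG. Pdha2 had a TATAAA, Cyct a CCAAT, and Cycs a CCAAT and 3 matches to TGACG, of which 2 overlap; the windows of Gapdhs, Gapdh and Pdha1 held none of the motifs. The last 150 bases before the start are shown for the phosphoglycerate kinase and lactate dehydrogenase pairs, which differed most and least between their forms over the mice (below), with motif matches in capitals. They are chr17:40208610-40208759 (minus strand) for Pgk2, chrX:106186950-106187099 (plus) for Pgk1, chr7:46861113-46861262 (plus) for Ldhc and chr7:46845654-46845803 (plus) for Ldha, all on GRCm38.p6.
Pgk2: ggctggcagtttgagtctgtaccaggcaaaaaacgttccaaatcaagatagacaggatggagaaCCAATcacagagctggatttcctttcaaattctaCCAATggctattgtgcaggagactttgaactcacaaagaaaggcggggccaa
Pgk1: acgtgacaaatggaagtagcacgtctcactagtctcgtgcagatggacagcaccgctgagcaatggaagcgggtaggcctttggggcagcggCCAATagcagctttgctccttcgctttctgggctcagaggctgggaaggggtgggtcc
Ldhc: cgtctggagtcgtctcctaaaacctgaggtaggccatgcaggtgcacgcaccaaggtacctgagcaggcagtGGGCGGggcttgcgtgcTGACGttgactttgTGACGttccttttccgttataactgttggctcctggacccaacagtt
Ldha: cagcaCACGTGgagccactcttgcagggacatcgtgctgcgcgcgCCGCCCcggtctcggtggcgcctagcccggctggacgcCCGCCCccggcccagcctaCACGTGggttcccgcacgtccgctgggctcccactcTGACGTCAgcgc

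No member passed the test of DEHP against vehicle. Values below are on the log2 scale, each mouse set against the average of all 5 mice for that probe, so they compare mice within a gene and not genes with each other. In limma's test on the 5 mouse values with Benjamini-Hochberg adjustment over 15830 genes, 0 genes (0%) had an adjusted p under 0.05. The smallest adjusted p was 1, for every member too, and 136 genes had an unadjusted p under 0.05, none of them a member. The largest differences among the testis forms were those of Pgk2 and Ldhc, both higher in the DEHP mean. Among the somatic forms they were those of Cycs and Pgk1, both lower in it. In each of these 4 genes the mice of 1 or both groups lay further apart than the group means.

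Pgk2 makes ATP from bisphosphoglycerate in late germ cells and sperm. Its log2 value was -0.05 for the first DEHP animal, mouse 1, and 0.70 for mouse 4, whereas vehicle mice 1, 2 and 4 had 0.40, -0.66 and -0.39. DEHP mouse 4 was the highest and vehicle mouse 1 the next, above DEHP mouse 1, so the groups overlapped. The means were 0.32 ± 0.52 (SD, n = 2) and -0.22 ± 0.55 (SD, n = 3), a difference of 0.54 (SE 0.40, 95% interval -0.45 to 1.53, limma adjusted p = 1). Slides 1 and 2 hold the same 4 mice, the DEHP mice with vehicle mice 1 and 2, in opposite dyes, and slide 3 holds the DEHP mice with vehicle mouse 4 alone, so their values are not replicates of each other. The Pgk2 difference was 0.52, 0.39 and 0.71 on them.

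Ldhc is the lactate dehydrogenase of spermatocytes, spermatids and sperm. It read -0.33 and 0.95 in the DEHP mice, numbers 1 and 4, against 0.13, -0.38 and -0.37 in the vehicle mice, numbers 1, 2 and 4, the order kept below. DEHP mouse 4 stood above all others, while DEHP mouse 1 lay close to vehicle mice 2 and 4. The difference of the means, 0.31 ± 0.90 (SD, n = 2) and -0.20 ± 0.29 (SD, n = 3), was 0.51 (SE 0.42, 95% interval -0.53 to 1.55, limma adjusted p = 1), and without DEHP mouse 4 it was -0.13. Its probe also had the widest gap between dye orientations of a pair of mice among the members, 1.26, and the difference was 0.72, 0.14 and 0.67 within slides 1, 2 and 3, of which slides 1 and 2 hold 1 orientation each.

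The other testis forms differed less between the groups. Gapdhs, the enzyme of sperm-tail glycolysis, read -0.02 and 0.23 in the DEHP mice and 0.23, 0.02 and -0.47 in the vehicle mice, a difference of 0.18 (SE 0.27, 95% interval -0.50 to 0.86). Without vehicle mouse 4, the lowest, it was -0.020. Pdha2, which commits pyruvate to the citric acid cycle in germ cells, read -0.52 and 0.46 against 0.38, -0.04 and -0.28. The DEHP mice were here the lowest and the highest of the 5, and the difference was -0.05 (SE 0.37, 95% interval -0.96 to 0.86). Cyct, the testis cytochrome c, read -0.28 and 0.17 against 0.46, -0.23 and -0.12, a difference of -0.10 (SE 0.29, 95% interval -0.82 to 0.63). The last 2 differences were above 0 without DEHP mouse 1, at 0.45 and 0.13. Over the 5 testis forms 3 differences were above 0 and 2 below, beside 7653 above and 8177 below over all 15830 genes tested. The median of the testis forms was 0.18, beside -0.01 over all genes tested. On slides 1, 2 and 3 alone that median was 0.11, -0.15 and 0.58, and with median centring of all arrays it was 0.29, with 4 of 5 above 0.

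**Figure D1:**
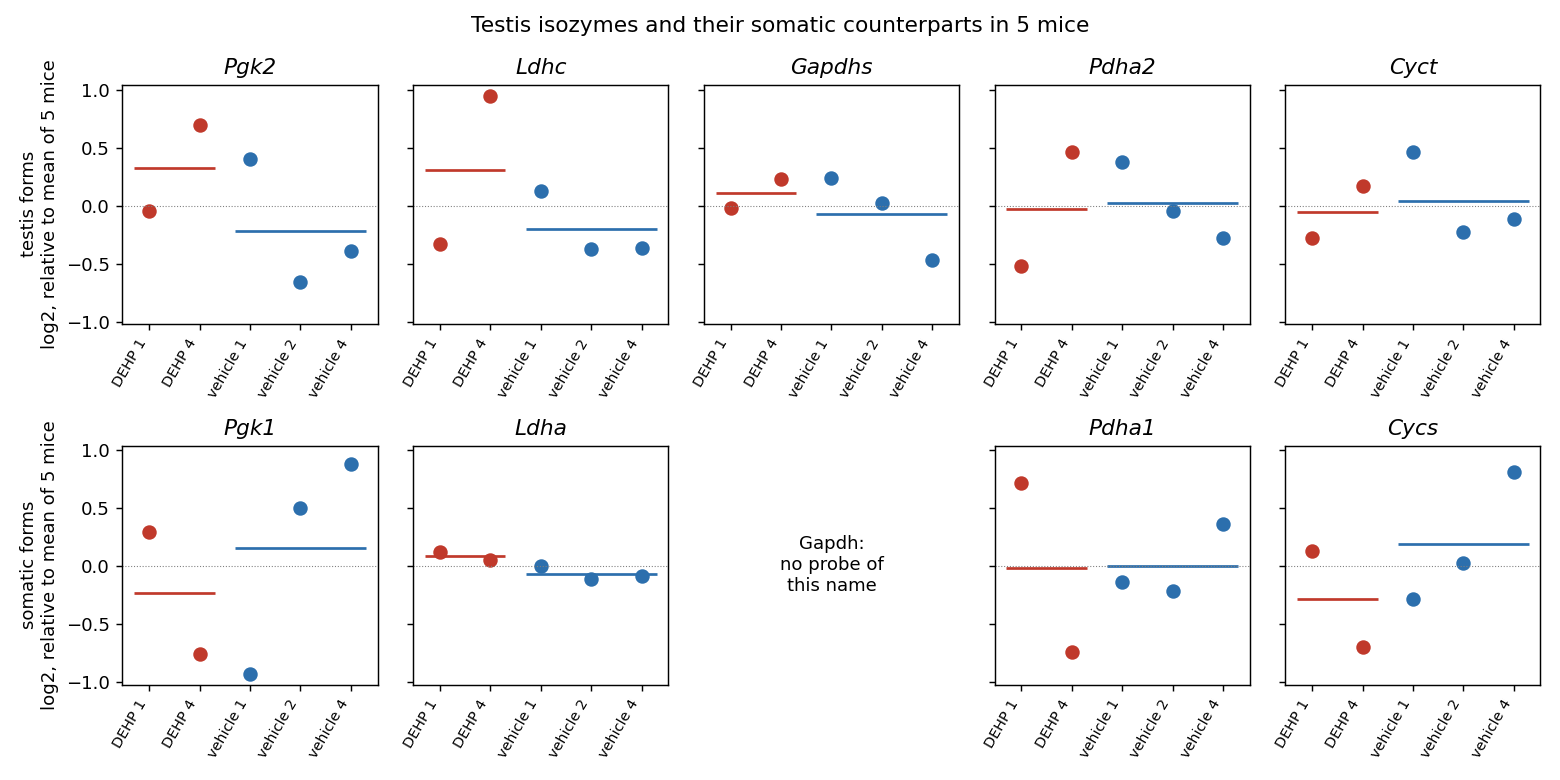
Log2 value of each member by mouse, against the average of all 5 (points; DEHP red, vehicle blue), with the group mean as a line; testis forms are above and their somatic partners below. DEHP mouse 4 and vehicle mouse 1 are the highest mice for all 5 testis forms and lie below 0 for Pgk1, Pdha1 and Cycs, while Ldha spans 0.23.

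Among the somatic forms Pgk1, the X-linked phosphoglycerate kinase, had the widest spread. It read 0.29 and -0.76 in the DEHP mice and -0.92, 0.50 and 0.89 in the vehicle mice, so that vehicle mice held both the lowest and the highest value. The difference was -0.39 (SE 0.61, 95% interval -1.91 to 1.14, limma adjusted p = 1), and it was 0.14 without DEHP mouse 4. Cycs, the somatic cytochrome c of the respiratory chain, read 0.13 and -0.69 against -0.28, 0.03 and 0.82, a difference of -0.47 (SE 0.42, 95% interval -1.51 to 0.56). DEHP mouse 4 was the lowest and vehicle mouse 4 the highest. Pdha1, the X-linked somatic E1 alpha subunit, read 0.72 and -0.74 against -0.14, -0.21 and 0.37. Its DEHP mice were the highest and the lowest of the 5, the mirror of Pdha2, and the difference was -0.02 (SE 0.46, 95% interval -1.17 to 1.13). Leaving out DEHP mouse 4 gave 0.71, and leaving out DEHP mouse 1 gave -0.75.

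Ldha, the muscle-type subunit of lactate dehydrogenase, was the member whose groups did not overlap. It read 0.13 and 0.06 in the DEHP mice and 0.0015, -0.11 and -0.08 in the vehicle mice, a difference of 0.16 (SE 0.18, 95% interval -0.30 to 0.61, limma adjusted p = 1). Of all genes tested 9.17% had groups that did not overlap, and among the 9 members it was 1. The 5 mice of Ldha lay within 0.23 of each other, and its array ratios differed by up to 0.59 between the dye orientations of a pair of mice. With DEHP RNA in Cy5 all 6 Ldha ratios were above 0, and with DEHP RNA in Cy3 4 of 6 were below 0. This flat profile depended on the normalization: with median centring in place of loess, Ldha read -0.37 and 0.72 against 0.18, -0.52 and -0.0050, so that the groups overlapped and DEHP mouse 4 was the highest. Over the 4 somatic forms measured, 1 difference was above 0 and 3 below, with a median of -0.20. On slides 1, 2 and 3 alone that median was 0.090, -9.2e-05 and -0.74.

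**Figure D2:**
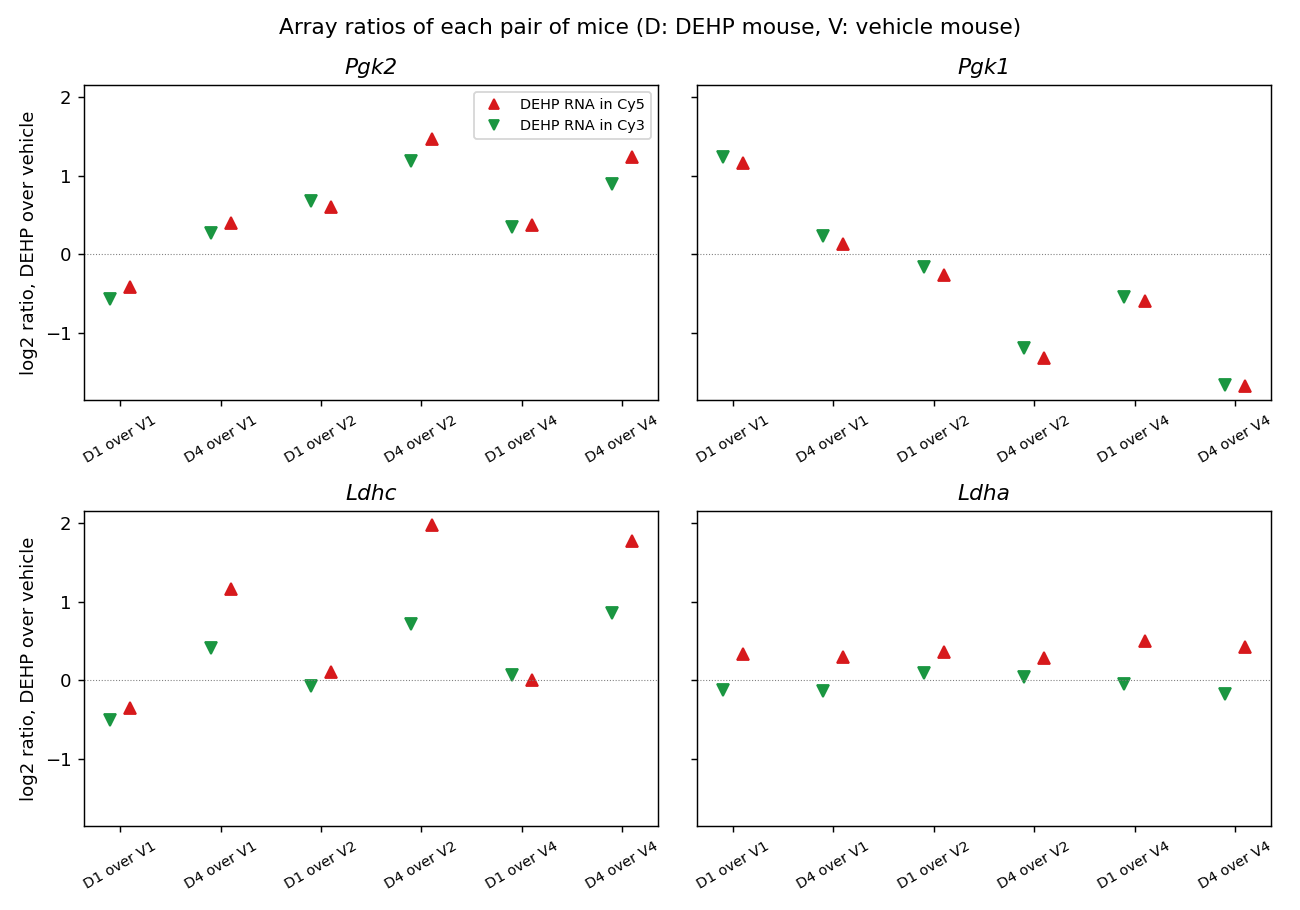
Log2 ratio of DEHP over vehicle on each of the 12 arrays for Pgk2, Pgk1, Ldhc and Ldha, by pair of mice; triangles up have DEHP RNA in Cy5 and triangles down in Cy3. Pgk2 was above 0 on 10 of 12 arrays and Pgk1 on 4 of 12, Ldhc ran from -0.50 to 1.98 with its highest ratios in arrays of DEHP mouse 4, and Ldha ran from -0.17 to 0.51.

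Where a gene had several probes, those of Pgk1 ran alike and those of Cycs and Gapdhs in part, while those of Ldha and Pdha1 did not. The second Pgk1 probe read 0.23 and -0.63 in the DEHP mice and -0.77, 0.37 and 0.79 in the vehicle mice, the same order of mice as the first. The 3 Cycs probes put DEHP mouse 4 lowest and vehicle mouse 4 highest, with DEHP minus vehicle differences of -0.47, -0.42 and -0.36. They did not agree on vehicle mice 1 and 2, which read -0.28 and 0.03, -0.15 and -0.06, and 0.09 and -0.17 on them. The second Ldha probe, which lies nearer the start of the gene, read -0.19, 0.41, 0.07, -0.16 and -0.13. DEHP mouse 4 was thus its highest mouse and DEHP mouse 1 its lowest, and the groups overlapped. On the brighter probe, the one used, DEHP mouse 1 was the highest, at 0.13. The difference between the groups was 0.19 on the second probe, close to the 0.16 of the brighter one. The second Gapdhs probe was well above background on 5 of 12 arrays in the DEHP channel and 4 of 12 in the vehicle channel, and its mice lay within 0.18 of each other. It read -0.01 and 0.12 in the DEHP mice and 0.02, -0.06 and -0.06 in the vehicle mice. DEHP mouse 4 and vehicle mouse 1 were thus highest on it, as on the probe used, over a narrower range. The second Pdha1 probe did not pass the filter, being well above background on 0 of 12 arrays in the DEHP channel and 1 of 12 in the vehicle channel. It read 0.01 and 0.26 in the DEHP mice and -0.03, -0.09 and -0.14 in the vehicle mice. DEHP mouse 4 was thus its highest mouse, and the lowest on the probe used.

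The RNA extracts of mice of the same group differed from each other in most members, and in 3 of 4 contrasts the testis forms did so in 1 direction. Each contrast below is limma's on the 12 array ratios and sets the amplified extract of 1 mouse against that of another. Its SE and adjusted p therefore cover the spread between arrays of the same extracts only, and neither capture, amplification nor differences between animals. In DEHP mouse 4 against DEHP mouse 1, 5 of 5 testis forms were higher and 3 of 4 somatic forms lower, while 36.3% of all genes were called higher and 41.1% lower. Ldhc was higher by 1.28 (SE 0.15, adjusted p = 1.17e-05), Pdha2 by 0.99 (SE 0.03, adjusted p = 3.27e-10) and Pgk2 by 0.74 (SE 0.06, adjusted p = 3.08e-07). Cyct was higher by 0.45 and Gapdhs by 0.25. On the somatic side the log2 difference was -1.46 for Pdha1, -1.05 for Pgk1 and -0.82 for Cycs. Ldha was not called, at -0.07 (SE 0.05, adjusted p = 0.236).

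Vehicle mice 2 and 4 were both lower than vehicle mouse 1 in the testis forms. In vehicle mouse 2 against 1, 5 of 5 testis forms were lower (33% of all genes) and 2 of 4 somatic forms, Pgk1 and Cycs, higher (38% of all genes). The differences of the testis forms ran from -1.06 for Pgk2 to -0.21 for Gapdhs, and Pgk1 was higher by 1.43. Another Cycs probe read lower in vehicle mouse 2 than in vehicle mouse 1 (-0.17 against 0.09). In vehicle mouse 4 against 1, 5 of 5 testis forms were again lower (33.5% of all genes) and Pgk1, Pdha1 and Cycs higher (35.3%), with -0.79 for Pgk2, -0.70 for Gapdhs and 1.81 for Pgk1. The contrast of vehicle mouse 4 and 2 did not follow this pattern: Pgk2 was higher by 0.27, Gapdhs and Pdha2 lower, at -0.49 and -0.23, and the 3 somatic forms Pgk1, Pdha1 and Cycs were higher. There 28.3% of all genes were called higher and 29.1% lower. Both contrasts against vehicle mouse 1 share that mouse.

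With median centring the testis forms kept their calls in the first 3 contrasts, but not in that of vehicle mouse 4 and 2, and calls of somatic forms were lost and gained. For DEHP mouse 4 against 1, that scaling moved the median of all genes to 0.30 and the calls to 8655 higher and 2578 lower, from 5748 and 6505. All 5 testis forms were still called higher, by 1.03 (Gapdhs) to 2.28 (Ldhc) above that shift, Ldha was called higher, and Pgk1 and Cycs were no longer called. For vehicle mouse 2 against 1, Cycs was no longer called and Ldha was called lower. For vehicle mouse 4 against 1 the median of all genes was 0.15 and the calls 6340 higher and 2974 lower, from 5589 and 5306, with the same members called. For vehicle mouse 4 against 2 the median was 0.19 and the calls 6118 and 1434, from 4474 and 4611, and Pgk2, Ldhc, Cyct and all 4 somatic forms were called higher, with no testis form called lower. In vehicle mouse 4 against 1, Ldhc was not called with the scanner software's processed signals (limma adjusted p = 0.0502) or with no background correction (0.0647). With the processed signals Pdha1 was called lower in vehicle mouse 2 against 1.

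**Figure D3:**
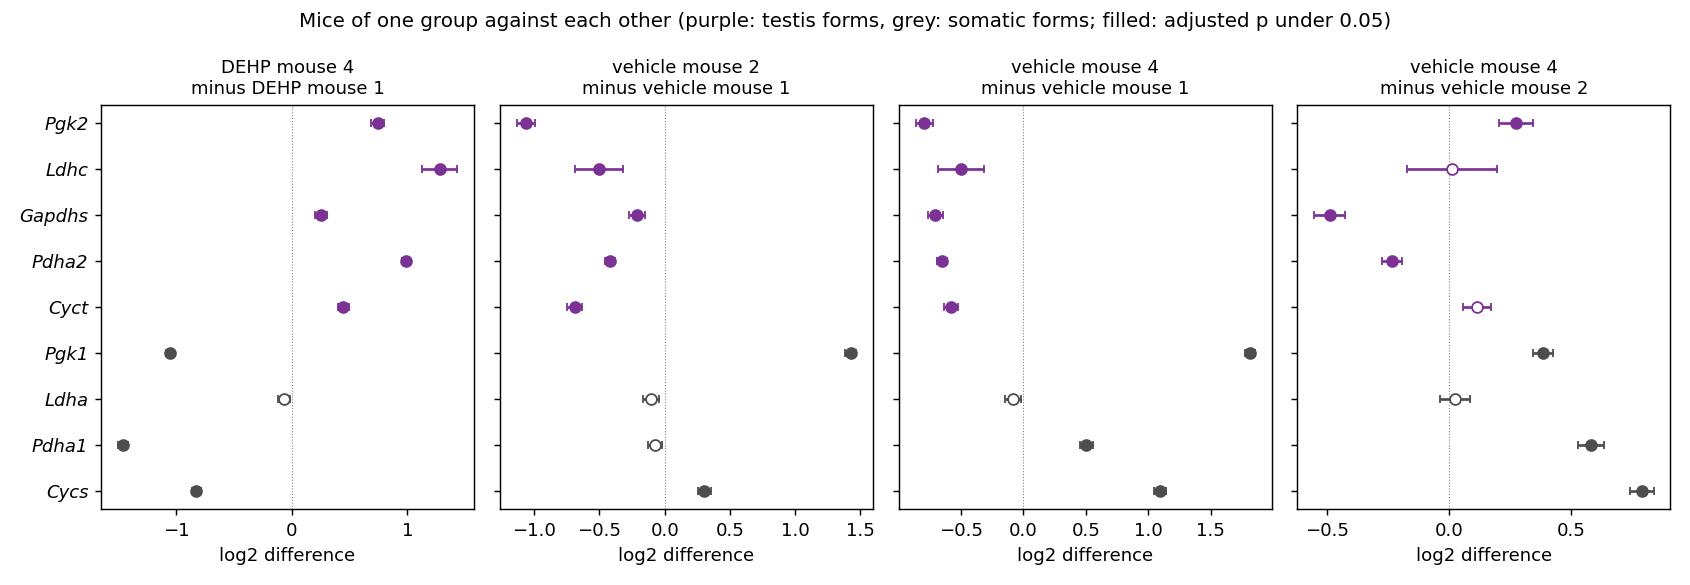
Log2 difference (point) and its standard error (bar) between mice of the same group for the 9 measured members; filled points have a limma adjusted p under 0.05, purple marks testis forms and grey somatic forms, and each panel has its own horizontal scale. The 5 testis forms lie to the right of 0 in DEHP mouse 4 minus 1 and to the left in vehicle mice 2 and 4 minus 1, with Pgk1 and Cycs on the other side in each.

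The gap between a testis form and its partner did not differ between the groups beyond the spread of mice. Per mouse, the log2 value of Pgk2 minus that of Pgk1 was -0.34 and 1.45 in the DEHP mice and 1.33, -1.16 and -1.28 in the vehicle mice. DEHP mouse 4 and vehicle mouse 1 were high, so the groups overlapped. The mean gap was 0.56 ± 1.27 (SD, n = 2) against -0.37 ± 1.47 (SD, n = 3), a difference of 0.93 (exact two-sided permutation p = 0.5, 0.933 after adjustment over the 4 pairs). There are 10 ways to label the mice, so the smallest p this test can give is 0.1.

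Pdha2 minus Pdha1 was -1.24 and 1.20 in the DEHP mice, the lowest and the highest of the 5, and 0.51, 0.17 and -0.64 in the vehicle mice. The groups differed by -0.03 (exact permutation p = 1). Cyct minus Cycs was -0.41 and 0.86 against 0.74, -0.26 and -0.93, a difference of 0.38, and Ldhc minus Ldha was -0.46 and 0.89 against 0.13, -0.27 and -0.28, a difference of 0.36 (exact permutation p = 0.7 for both, 0.933 adjusted). Without DEHP mouse 4 the last 2 differences were -0.26 and -0.32. In all 4 gaps DEHP mouse 4 was the highest mouse and vehicle mouse 1 the next.

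Gapdhs could be set against the LOC380687 probe shown above, a stand-in for Gapdh chosen after its values were seen. Whether it reads Gapdh itself was not tested. That probe read 0.25 and -0.48 in the DEHP mice and -0.19, 0.09 and 0.33 in the vehicle mice, with DEHP mouse 4 lowest, as for Cycs and Pdha1. Gapdhs minus this probe was -0.27 and 0.71 against 0.42, -0.07 and -0.80, with the same 2 mice on top. The difference between the groups was 0.37 (exact permutation p = 0.5, not adjusted). A probe named MGC68323, on chromosome 1, also lists the Gapdh transcript and read 0.27, -0.27, -0.10, -0.10 and 0.20, while the LOC14433 probe was well above background on 0 of 12 arrays.

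**Figure D4:**
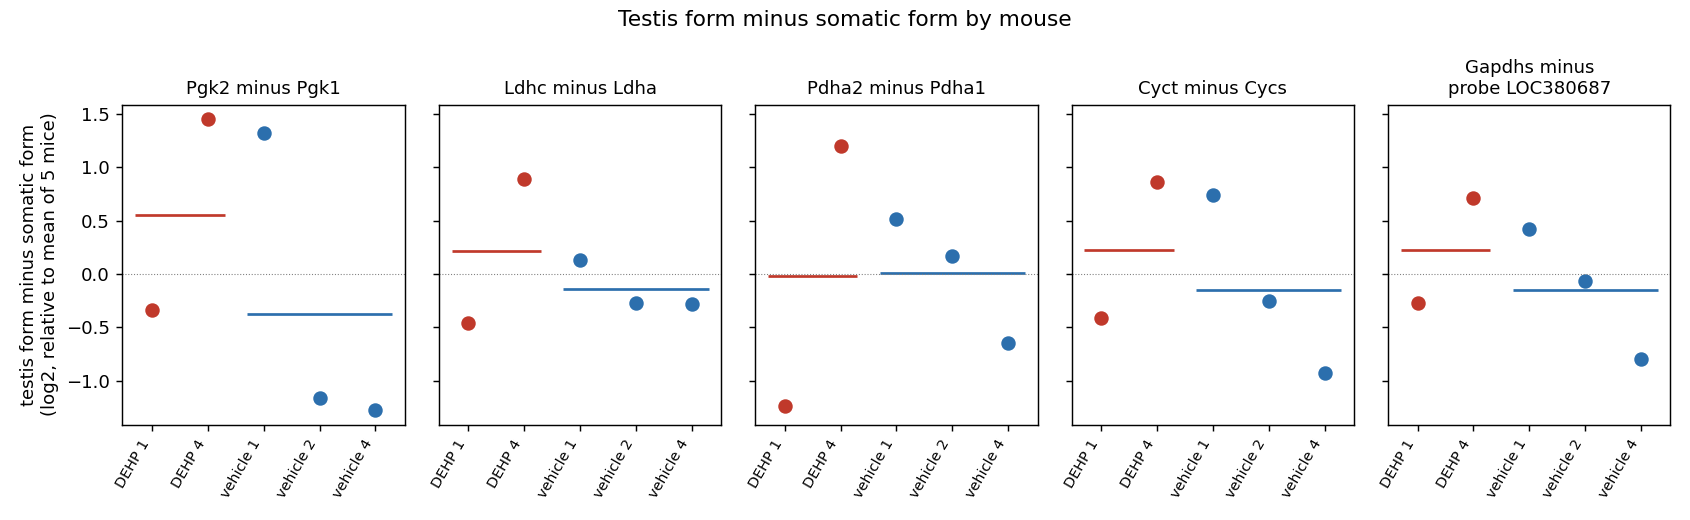
Log2 value of the testis form minus that of the somatic form in each mouse (points; DEHP red, vehicle blue; lines are group means), for 4 pairs and for Gapdhs minus the LOC380687 probe. In each panel DEHP mouse 4 is the highest and vehicle mouse 1 the next, and DEHP mouse 1 lies below 0.

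Spermatid markers moved in part with the testis forms from mouse to mouse, and Leydig cell markers in part with the somatic forms. The median of the 5 testis forms was -0.28 and 0.46 in the DEHP mice and 0.38, -0.23 and -0.37 in the vehicle mice. The median of 15 spermatid markers was 0.01 and 0.82 against 0.28, -0.72 and -0.44, with DEHP mouse 4 and vehicle mouse 1 again the 2 highest. For 10 Leydig cell markers it was 0.67 and -0.73 against -0.46, 0.22 and 0.40, with the same 2 mice lowest, and for the 4 somatic forms 0.21 and -0.72 against -0.21, -0.04 and 0.59. Other lists shared these patterns. The spermatocyte median was -0.12 and 0.18 against 0.37, -0.09 and -0.17, and the macrophage median 0.47 and -0.47 against -0.43, 0.02 and 0.46. In DEHP mouse 4 against 1, 15 of 15 spermatid markers were called higher and 9 of 10 Leydig cell markers lower. Of all genes 36.3% were called higher there and 41.1% lower, and such shares are in brackets below. In vehicle mouse 2 against 1, 15 of 15 spermatid markers were lower (33%) and 8 of 10 Leydig cell markers higher (38%). In vehicle mouse 4 against 1, 12 of 15 spermatid markers were lower (33.5%) and 9 of 10 Leydig cell markers higher (35.3%). In vehicle mouse 4 against 2, 8 of 15 spermatid markers were higher and 1 lower, beside 1 and 2 of the 5 testis forms. Of the Leydig cell markers 6 of 10 were higher in it and 2 lower (28.3% and 29.1%). Of the other lists, in DEHP mouse 4 against 1, 8 of 14 spermatocyte markers were called higher and 2 lower, 7 of 10 macrophage markers lower and 1 higher, and 5 of 6 peritubular myoid and 5 of 5 endothelial cell markers lower. The 12 Sertoli cell markers did not follow, with 3 higher, 3 lower and a median of 0.015. Several of these counts depended on the normalization. With median centring 10 of 12 Sertoli cell and 14 of 14 spermatocyte markers were higher in that contrast, and 1 Sertoli cell marker lower. Of the peritubular myoid markers 2 of 6 were then lower and 1 higher, and of the endothelial cell markers 2 of 5 lower. Spermatid, Leydig cell and macrophage counts stayed the same. Of all 15830 genes 8655 were higher and 2578 lower. The part of cell composition in the members' values was not tested.

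Between DEHP and vehicle the spermatid list and the testis forms did not run equally. For the spermatid markers 14 of 15 differences were above 0 with a median of 0.70, and 0 were called. Beside such counts, here and below, 7653 of all 15830 genes were above 0 and 8177 below, or 8086 and 7744 with median centring. For the Leydig cell markers 2 of 10 were above 0 with a median of -0.19. The 14 spermatocyte markers tested had 7 above and 7 below 0, with a median of -0.0038. Medians were -0.31 for 12 Sertoli cell, -0.48 for 6 peritubular myoid cell, -0.0074 for 10 macrophage and -0.10 for 5 endothelial cell markers, with 0 called in each list. The counts for spermatid markers were the same under every background correction and scaling tried, while median centring gave 3 of 10 for the Leydig cell markers. Quantile scaling of average intensities after loess was among these, and it leaves every log ratio unchanged, so its counts could not differ. With the scanner software's processed signals the medians were -0.30 for Leydig, -0.51 for Sertoli (12 of 12 below 0), -0.91 for peritubular myoid cell and -0.17 for macrophage markers. The medians of the spermatocyte and macrophage lists, close to 0, each turned sign in 1 setting, to 0.043 with median centring and to 0.0042 with a normexp offset of 10. The difference between the lists was not tested.

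**Figure D5:**
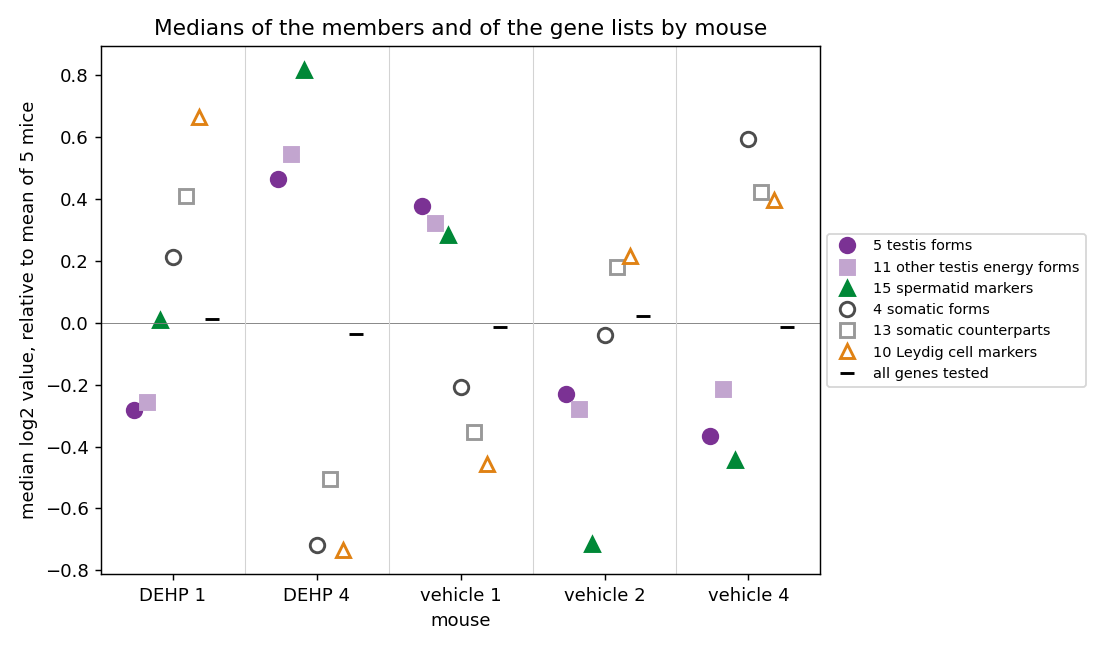
Median log2 value, relative to the mean of the 5 mice, of the testis and somatic forms, of the other testis forms of energy enzymes and their counterparts, of spermatid and Leydig cell markers, and of all genes tested, by mouse. Filled symbols (testis forms, other testis energy forms, spermatid markers) are highest in DEHP mouse 4 and vehicle mouse 1, where the open symbols are lowest; all genes stay between -0.04 and 0.02.

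The rest of the testis-specific energy machinery was looked up in a list of 14 genes, of which 11 were tested. They include testis forms of aldolase, enolase and glycerol kinase and testis subunits of cytochrome oxidase. Of these, 9 differences between DEHP and vehicle were above 0 and 2 below, with a median of 0.11, and 0 were called. Oxct2a, a testis enzyme of ketone body use, had the lowest p of the list: it read 3.2e-04 and 0.96 in the DEHP mice and -0.08, -0.29 and -0.58 in the vehicle mice, a difference of 0.80 (SE 0.34, limma adjusted p = 1). Aldoart2, a retrogene for aldolase A, read -0.04 and 0.54 against 0.07, -0.12 and -0.46, a difference of 0.42 (SE 0.28). In DEHP mouse 4 against 1, 9 of the 11 were called higher and 1 lower, beside 36.3% and 41.1% of all genes. In vehicle mouse 4 against 1, 10 of 11 were lower, beside 33.5%. With median centring these counts were 11 higher and 0 lower, and 6 lower. Of all 15830 genes that scaling called 8655 higher and 2578 lower in the first contrast, and 2974 lower in the second. In vehicle mouse 2 against 1, 9 of the 11 were lower without that scaling, beside 33% of all genes. The contrast of vehicle mouse 4 and 2 did not follow, with 5 higher and 3 lower, beside 28.3% and 29.1% of all genes. With median centring 5 were higher and 0 lower in it, beside 6118 and 1434 of all genes.

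For the 13 somatic counterparts of those genes, 3 differences were above 0 and 10 below, with a median of -0.13, and 0 were called. Eno1, the glycolytic enolase, had the lowest p: it read 0.08 and 0.50 against 0.34, -0.50 and -0.42, a difference of 0.48 (SE 0.33). Its pattern over the mice, with DEHP mouse 4 and vehicle mouse 1 on top, was that of the testis forms. Oxct1, the somatic ketone enzyme, read 0.16 and -0.50 against -0.08, 0.0017 and 0.42, a difference of -0.29 (SE 0.29), with DEHP mouse 4 lowest. In DEHP mouse 4 against 1, 11 of 13 counterparts were called lower and 2 higher, beside 41.1% and 36.3% of all genes. With median centring 4 were called lower and 3 higher, beside 2578 and 8655 of all 15830 genes. Without that scaling, 9 counterparts were higher and 3 lower in vehicle mouse 2 against 1 (38% and 33% of all genes). In vehicle mouse 4 against 1, 11 were higher and 2 lower (35.3% and 33.5%), and in vehicle mouse 4 against 2, 8 and 1 (28.3% and 29.1%).

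The partners of the members in the same pathways were also not called. Of 18 other glycolysis enzymes and transporters 11 differences were above 0 and 7 below (median 0.08). Hk1, the first enzyme of the pathway and one with a testis transcript, read 0.12 and 0.86 against -0.14, -0.22 and -0.63, a difference of 0.82 (SE 0.30, unadjusted p = 0.0381, limma adjusted p = 1) with no overlap of the groups. Gpi1, which isomerises glucose phosphate, had a difference of 0.43 (SE 0.26). In the pyruvate dehydrogenase complex and its kinases and phosphatases, 6 of 9 were above 0 (median 0.05), led by Pdhx, which binds the E3 subunit, at 0.24 (SE 0.19) and the inhibitory kinase Pdk4 at 0.51 (SE 0.60). All 8 tested partners of cytochrome c were below 0 (median -0.35), as was Cycs, with Cyc1 at -0.53 (SE 0.29) and Cox5b at -0.34 (SE 0.25). With median centring 7 of those 8 were below 0.

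Pgk2, Ldhc, Pdha2 and Cyct each lay closer to every other testis form over the 5 mice than to their own somatic partner. The root mean square difference of the 5 mouse values lay between 0.21 (Pdha2 and Cyct) and 0.40 (Ldhc and Cyct) for pairs of testis forms. Between a testis form and its own partner it was 1.18 for Pgk2 and Pgk1, 0.86 for Pdha2 and Pdha1, 0.69 for Cyct and Cycs and 0.48 for Ldhc and Ldha. The flat Ldha lay as close to some testis forms as these did to each other: it was 0.23 from Gapdhs, less than any other testis form (0.25 to 0.40), and 0.28 from Cyct. Among 6833 other genes with a current symbol and an SD over the mice of at least 0.3, the nearest to Ldhc were Nsd2, a histone methyltransferase (0.03), Yme1l1, a mitochondrial protease (0.03), and Cdkn2c, a cyclin-dependent kinase inhibitor (0.04). The nearest to Cyct were Ero1b (0.03), Dcst1 (0.03) and Tfb1m (0.04), and to Pgk2 LTO1 (0.05), Grk4 (0.06) and Cdv3 (0.06). Gapdhs was nearest to Fam219a (0.05), Rrp1 (0.05) and Nudt12 (0.07), and Pdha2 to Dyrk3 (0.06), Ap2a2 (0.06) and Mob3b (0.06). With 5 values per gene and so many candidates, close matches are many, and these are given as a description.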

How the data were processed

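Scanner files of 12 two-colour arrays of 5 mice (2 DEHP, 3 vehicle) were used. The deposited spot intensity values (mean signal and local background per channel) were, per the file headers, written by Feature Extraction 9.5.1.1 and not normalized across arrays. The deposited files also hold a log10 ratio of red over green, used here for direction only, and flags. The authors' deposited value table holds log2 ratios of unstated scale and direction. Matched by the row of the spot, its columns correlated with the scanner ratios turned to DEHP over vehicle at r = 0.915 to 0.993, with slopes of 0.842 to 0.932 and medians from -0.06 to 0.00, so they ran as DEHP over vehicle. Its filter and its centring are unknown. Limma is named in the submitters' processing notes.

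Limma 3.58.1 in R 4.3.3 was used. The background correction was normexp (offset 50), arrays were normalized with loess (control spots at weight 0), outlier-marked spots were left out and spots of a probe averaged. Least squares on the 12 ratios gave 5 mouse values and a dye effect per probe. Kept were the 21198 probes that 2 or more mice showed well above background on 50% or more of their arrays, and the brightest kept probe stands for its gene. The test of the groups was limma's lmFit and eBayes over mouse values (Benjamini-Hochberg, threshold 0.05); single mice were compared over array ratios. Of the 15830 genes, 10550 were named by RefSeq accession, 1894 by symbol, 971 by an older symbol and 2415 as in the file. Functions were tested on simulated arrays. The number of arrays and mice limits the precision.

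The members, lists and rules were chosen with earlier results of these data known. Named are all members, from each pathway list the genes past the threshold or else the 2 of lowest p, and the 3 nearest genes of each testis form. Promoter sequences are RefSeq's (GRCm38.p6); all 10 members matched. Probe positions are on mm7. Alternatives covered background, normalization, filter, probes, dye, slide, unit of replication, single mice and the authors' table.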

Additional observations from a re-analysis of the deposited data

How the results depend on the processing

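The count of genes past the threshold between DEHP and vehicle was 0 in 19 of the 21 alternatives fitted. It was 104 with the pair of mice as a random block and 2123 with the 12 arrays taken as independent, which counts arrays of a mouse as animals; no member was called in either (smallest adjusted p 0.0515, Ldha). With mouse number as a replicate block (mice 1 and 4 of both groups) it was 0, and the difference of Pdha2 minus Pdha1 was 0.047. The labels do not say that equal numbers pair mice. That gap was 0.030 in the authors' value table, and 0.084 with median centring, under which Pdha2 was 0.023. Slide 1 alone gave 0.25 for Pdha1. Slide 2 alone gave 0.031 for Pgk1, -0.031 for Ldha, 0.078 for Pdha1, -0.15 for Gapdhs and -0.088 for Cyct minus Cycs. Slide 3 alone gave 0.25 for Pdha2, 0.058 for Cyct, 0.63 for Pdha2 minus Pdha1 and -0.74 for the median of the somatic forms, which was 0.090 on slide 1 and -9.2e-05 on slide 2. Leaving out a mouse gave -0.54 to 0.45 for Pdha2, -0.32 to 0.13 for Cyct, -0.93 to 0.14 for Pgk1, -0.75 to 0.71 for Pdha1, -0.13 to 1.15 for Ldhc and -0.020 to 0.33 for Gapdhs. It gave -0.81 to 0.16 for the median of the somatic forms, -0.13 to 0.45 for that of the testis forms, -1.25 to 1.19 for Pdha2 minus Pdha1, -0.32 to 1.03 for Ldhc minus Ldha and -0.26 to 1.01 for Cyct minus Cycs. The causes were not tested. Pgk2 (0.17 to 0.91), Pgk2 minus Pgk1 (0.030 to 1.83) and Cycs (-1.10 to -0.060) kept their direction in every alternative run. The alternatives include quantile scaling of average intensities after loess. That step leaves the log ratios unchanged, so its agreement with the main fit was fixed in advance. Between mice of a group the sum of higher and lower calls stayed within 1.5 times, but with median centring the lower calls went from 6505 to 2578 (DEHP mouse 4 against 1), from 5306 to 2974 (vehicle mouse 4 against 1) and from 4611 to 1434 (vehicle mouse 4 against 2), and the higher calls of the first from 5748 to 8655. A dye effect per slide could not be fitted to mouse values, since the design then has 7 columns of rank 6. The probes used for the members were well above background on all 12 arrays, and the comparison of the groups rests on 5 animals.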
